A study of Mus musculus with 2 samples.

Results

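The cells described here are stimulated mouse lung fibroblasts whose summed level of 6 contractile genes reached the median of the control cells. For each cell with at least 5000 unique molecular identifiers (UMIs, the tags that count single transcripts) and at most 20% mitochondrial UMIs, the UMIs of 6 genes, Acta2, Tagln, Tpm2, Myl9, Cnn1 and Actg2, were summed and expressed per 10000 UMIs. This sum is called the contractile score. A stimulated cell was taken if its score reached the median of the control cells passing the same filter, which was 60.3 per 10000. The rule took 587 of 6708 stimulated cells, and 10785 cells passed the filter in both libraries together. They are called contractile stimulated cells, and the remaining 6121 are called the other stimulated cells.

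The study grew wild-type lung fibroblasts of C57BL/6 mice, a common inbred strain, from whole dissociated lungs in medium with 10% fetal bovine serum, to passage 3. The stimulated library came from cells treated for 14 days under a protocol that lists rosiglitazone at 10 µM (an agonist of the nuclear receptor PPARG), rhBMP4 at 4 µM (a recombinant bone morphogenetic protein, BMP) and SB4315442 at 1 µM, given singly or together. Which of the 3 this library received is not stated. A medium supplement, ITS+3 at 1% by volume, is also named as part of inducing a lipofibroblast-like state. The control library came from cells of the same lung kept for the same time with vehicle in identical medium. Each group was a single droplet 3′ library, so nothing here has a replicate check, no test was run, and treatment cannot be told apart from library. The sources used here give neither the number of animals nor their age or sex.

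Contractile fibroblasts, or myofibroblasts, build stress fibres from smooth muscle actin, tropomyosins and myosin light chains, and pull on the surrounding matrix. Many of these genes are driven by serum response factor (SRF) with myocardin-related cofactors, and by TGF-beta signalling. SRF binds a short element called the CArG box in their promoters. Lipofibroblasts are lipid-storing fibroblasts of the alveolar wall, and PPARG agonists push cultured lung fibroblasts towards lipid genes and away from contractile ones. Expression levels below are counts per 1000000 UMIs (CPM), summed over the cells of a group. A gene was compared when its mean over both groups was at least 5 CPM, and it was counted as higher or lower when it differed at least 1.5-fold. Intervals are exact 95% intervals and cover counting error only.

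The promoters of the contractile genes are shown first because the sum of these genes chose the cells. RefSeq promoter windows on GRCm38.p6, from 250 bases before to 50 bases after the transcription start, were found for 4 of the 6 genes, and none for Tagln and Actg2. The window of Myl9 held an exact CArG box, as did 535 of all 32851 windows (1.63%). Allowing 1 mismatch among the 6 inner bases, the windows of Acta2 and Myl9 both held a box, as did 9.98% of all windows. Both strands were searched, and a match describes these letters only. The stretches below run 5′ to 3′ on the gene's strand, with the boxes in capitals. That of Acta2 lies at chr19:34255374-34255487 on the minus strand, its boxes starting 84 and 34 bases before the transcription start. That of Myl9 lies at chr2:156775273-156775404 on the plus strand, its boxes starting 161 and 99 bases before the start.
Acta2: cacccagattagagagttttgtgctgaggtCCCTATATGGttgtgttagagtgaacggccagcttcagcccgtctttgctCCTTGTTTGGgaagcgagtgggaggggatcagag
Myl9: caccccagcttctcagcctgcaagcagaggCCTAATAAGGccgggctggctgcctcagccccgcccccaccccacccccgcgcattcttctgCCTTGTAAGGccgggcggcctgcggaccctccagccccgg
The search allowed at most 1 C or G among the 6 inner bases, so the centre of each box is mostly A and T by construction. The windows of Tpm2 and Cnn1, the other genes of the rule with a window, held no box with at most 1 mismatch. For the 12 genes named further on as highest outside the rule, 11 windows were found, covering 10 of them. A window of Fhl1 held an exact box (9.09% of the 11), and with 1 mismatch allowed Cd59a also held one (18.2% for both). The others, that of Mylk among them, held none. Whether boxes go with higher levels in these cells was not tested.

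The stimulated library held 117381412 UMIs over 7698 barcodes and the control library 88876791 UMIs over 5016. The libraries shared 53 barcodes, which were kept as separate cells. The filter left out 990 stimulated barcodes for few UMIs and none for mitochondrial UMIs, and 936 and 3 control barcodes for these reasons. Contractile stimulated cells had a median of 18328 UMIs, the other stimulated cells 15901, control cells at or above the cut 20703 and control cells below it 20961.5. With the other stimulated cells weighted to the depth of the contractile ones, no named gene that was past 1.5-fold turned its direction.

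The contractile stimulated cells made up 8.75% of the stimulated cells (8.09 to 9.45%), against 50% of control cells by construction. Their scores ran from 60.3 to 447 per 10000, with a median of 84.2 and quartiles of 68.9 and 107. The other stimulated cells had a median score of 16.8 with quartiles of 8.94 and 28.6, control cells at or above the cut had a median of 99.7, and control cells below it 36.9. The 3 members just inside the cut scored between 60.27 and 60.31, and the 3 stimulated cells just outside scored between 60.22 and 60.24. Within 10% of the cut lay 255 stimulated cells, of which 107 were members and 148 were not. The scores formed a single continuous hump with no gap at the cut, so the cells are described as the upper end of a range. Whether a separate type is mixed into that end was not tested. Each library has 1 time point, so whether a given cell had kept or regained its contractile expression was not measured.

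**Figure D1:**
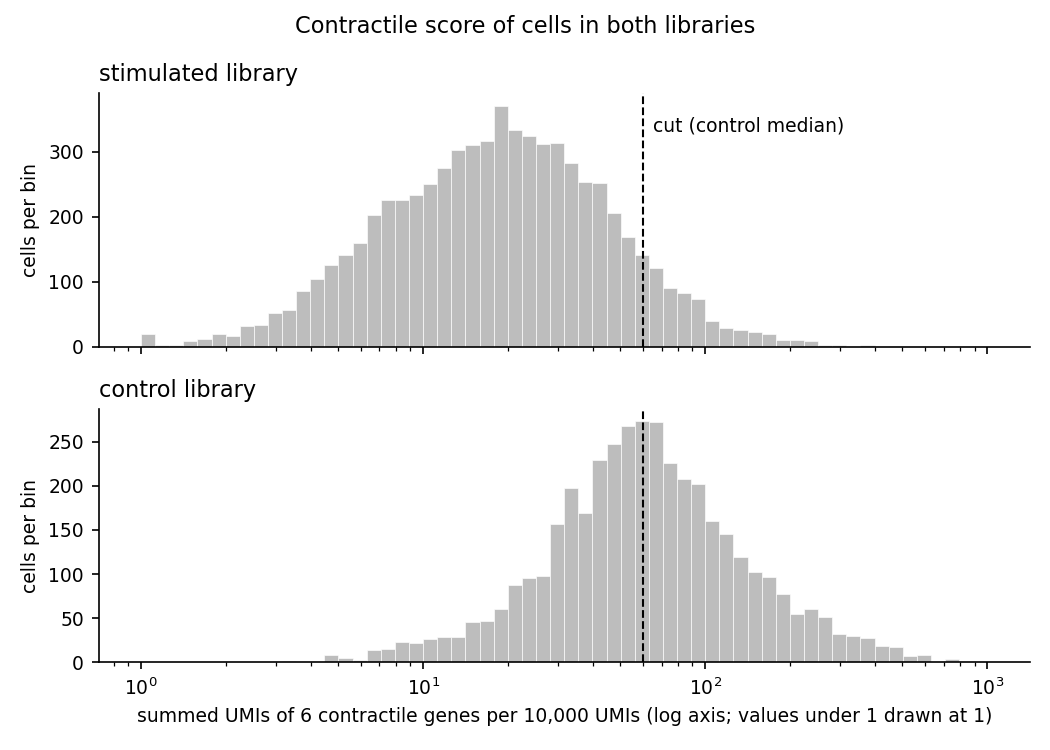
Histograms of the contractile score (log axis, UMIs per 10000) over stimulated cells, above, and control cells, below, with the cut as a dashed line. The stimulated cells lie mostly below the cut, with a median near 18.6, and 587 of 6708 lie at or above it, while the control cells centre on it at 60.3.

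Transcripts of the contractile genes were also counted in cells that should lack them, as free RNA in a droplet gives. In the control library 119 cells carried at least 20 UMIs of 5 macrophage genes per 10000. These cells had a median score of 9.89 at a median of 10803 UMIs, and 89.1% of them had an Acta2 UMI once thinned to 5000 UMIs. Only 2 of them reached the cut. No such measurement was made in the stimulated library. Levels are given here as CPM and as medians over cells, and the share of cells with a UMI of a contractile gene is not read as expression.

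The 6 genes of the rule are given as a description, since they chose the cells. Acta2, smooth muscle alpha-actin, stood at 4577 CPM in the contractile stimulated cells, 706 in the other stimulated cells, 5215 in control cells at or above the cut and 1120 in control cells below it. Tagln, which encodes the actin-binding protein transgelin, stood at 2821, 691, 3202 and 1182 CPM in the same 4 groups. Both genes were thus about as abundant in the contractile stimulated cells as in control cells above the cut, and lowest in the other stimulated cells. Tpm2, beta-tropomyosin, had 1593, 455, 1743 and 558 CPM, which is the same order. Myl9, the regulatory myosin light chain, had 717, 159, 1189 and 422 CPM. Cnn1, calponin 1, which binds actin and restrains the myosin motor, had 182, 21.6, 689 and 176 CPM, and Actg2, the gamma-actin of visceral smooth muscle, had 274, 35.4, 1093 and 205 CPM. For these last 2 genes the contractile stimulated cells stood close to the control cells below the cut, not to those above it.

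The make-up of the score therefore differed between the libraries. In the contractile stimulated cells Acta2 gave 45% of the summed UMIs, Tagln 27.8%, Tpm2 15.7%, Myl9 7.05%, Actg2 2.70% and Cnn1 1.79%. In control cells at or above the cut Acta2 gave 39.7%, Actg2 8.32% and Cnn1 5.25%. Over single cells, the median Acta2 level per 10000 UMIs was 36.4 in contractile stimulated cells (quartiles 26.9 and 49.3), 4.94 in the other stimulated cells (2.16 and 9.67) and 35.2 in control cells at or above the cut (24.4 and 62.2). The median Cnn1 level was 1.07 in contractile stimulated cells, 0 in the other stimulated cells and 5.85 in control cells at or above the cut.

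Each gene of the rule was also looked at in cells chosen by the other 5 genes, with the cut taken anew from the control cells. Chosen this way, Acta2 was 5.83-fold higher in contractile stimulated cells than in the others (5.76 to 5.90), Cnn1 7.57-fold (7.13 to 8.04) and Actg2 6.96-fold (6.64 to 7.30). Myl9 was 4.24-fold higher (4.13 to 4.35), Tagln 3.62-fold (3.57 to 3.67) and Tpm2 3.39-fold (3.34 to 3.45). The same choice among control cells gave 4.03-fold for Acta2, 3.55-fold for Cnn1, 4.64-fold for Actg2, 2.69-fold for Myl9, 2.38-fold for Tagln and 2.99-fold for Tpm2. Every one of the 6 genes was thus higher with the other 5 in both libraries. This describes the genes of the rule itself. Without Acta2, 448 of the 501 stimulated cells chosen were also members by all 6 genes.

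Other genes of the contractile apparatus, which the rule did not use, were mostly higher as well. Over all 8646 genes compared, 662 (7.66%) were at least 1.5-fold higher in the contractile stimulated cells and 222 (2.57%) at least 1.5-fold lower than in the other stimulated cells, 10.2% either way, with a median log2 fold of 0.02. These counts come from the same cells that the score ranked, so they and the list counts below describe the cells and support nothing further. Of the 26 listed contractile genes outside the rule 22 were compared, of which 17 were higher and none lower, with a median log2 fold of 0.88. Mylk, the kinase that switches on smooth muscle myosin, had 149 CPM in the contractile stimulated cells and 35.5 in the others, a 4.2-fold difference (3.97 to 4.45). Lmod1, leiomodin 1, an actin nucleator of smooth muscle, had 64.4 and 16.1 CPM (3.99-fold, 3.66 to 4.36). Csrp1 had 308 and 127 CPM (2.42-fold), Tpm1 1075 and 526 (2.05-fold) and Actn1, an actinin that crosslinks actin filaments, 332 and 175 (1.90-fold). Abundant cytoskeletal genes shared in this: Actb had 9507 and 4963 CPM, Myl6 2360 and 1109, and Actg1 2532 and 1617. For Actb, 12.8% of its 3′ windows matched another gene, so its reads may be split.

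A few contractile genes were near the limit of detection. Acta1, skeletal alpha-actin, had 15.4 CPM in the contractile stimulated cells, 1.36 in the other stimulated cells and 170 in control cells at or above the cut. Myh11, the smooth muscle myosin heavy chain, had 2.52, 0.154 and 49.8 CPM in these groups. Des, the intermediate filament desmin, took another order, with 270 CPM in contractile stimulated cells, 91.8 in the others and 131 in control cells at or above the cut.

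**Figure D2:**
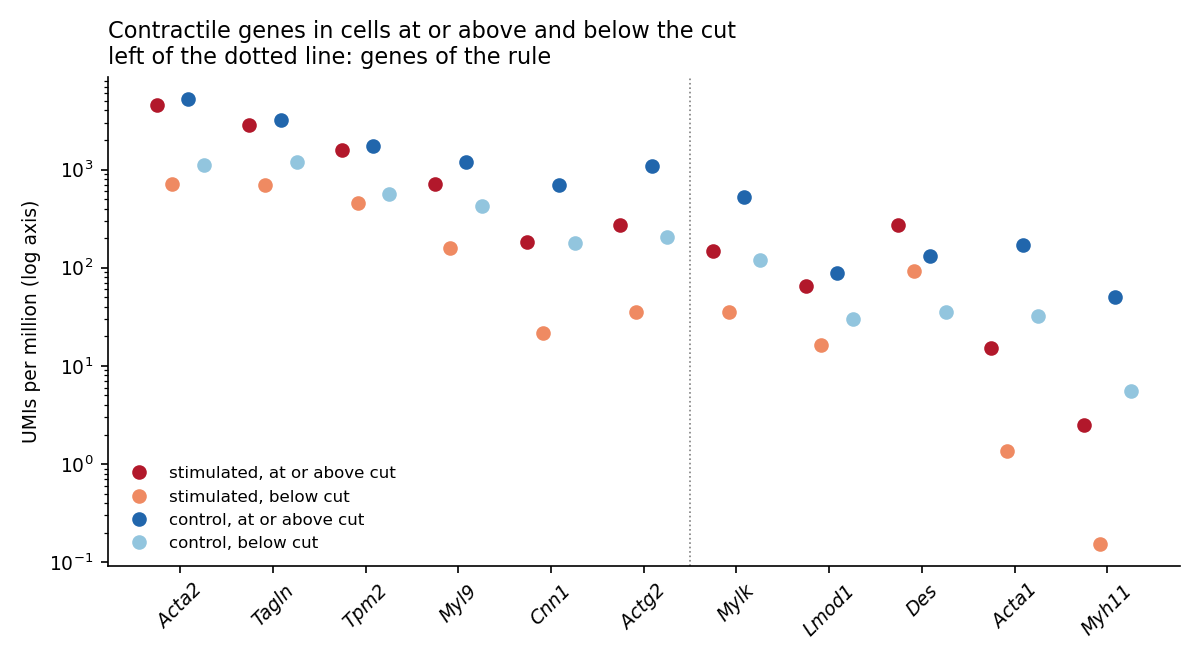
CPM (log axis) of the 6 genes of the rule and of 5 further contractile genes, summed over stimulated cells at or above and below the cut and control cells at or above and below it. Acta2, Tagln and Tpm2 of the contractile stimulated cells sit beside those of control cells above the cut, while Cnn1, Actg2, Mylk, Acta1 and Myh11 sit lower and Des sits higher.

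Genes of focal adhesions and other SRF targets followed the score. Of 21 compared, 13 were higher in the contractile stimulated cells and none lower, with a median log2 fold of 0.64. Fhl1, a LIM-domain protein of muscle, had 143 and 45.7 CPM in the contractile and the other stimulated cells (3.13-fold, 2.96 to 3.31). Nexn, an actin-binding protein, had 75.7 and 31.6 CPM, and Palld, palladin, which bundles actin, 65.5 and 29.5. Vcl, vinculin, the link between integrins and actin, had 110 and 70.2 CPM. Tmsb4x, which holds actin monomers, had 5172 and 3065 CPM. Srf itself had 18.8 and 14.1 CPM, below the 1.5-fold line. Among integrins 3 of 6 were higher, namely Itga8 with 9.21 and 3.44 CPM, Itgb1 with 427 and 243, and Itga5 with 198 and 131.

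Some targets of TGF-beta and of YAP with TEAD were higher in the contractile stimulated cells, and none was at least 1.5-fold lower. Of 17 TGF-beta response genes compared, 6 were higher and none lower, with a median log2 fold of 0.24. Over all genes compared, 7.66% were higher and 2.57% lower. Ctgf, a matricellular growth factor, had 164 CPM in the contractile stimulated cells and 62.5 in the others. Timp1, an inhibitor of matrix proteases, had 4617 and 2342, and Tgfb3, a TGF-beta ligand, 25.8 and 12.2. Il11 and Ltbp2 were also higher. Fn1, fibronectin, had 486 and 595 CPM, and was not among them. Of 13 YAP and TEAD targets 5 were higher, led by Ankrd1, a nuclear and sarcomeric ankyrin repeat protein, with 133 and 39.6 CPM (3.36-fold, 3.17 to 3.57). F3, tissue factor, had 91.2 and 35.5 CPM. Of the 7 BMP response genes compared none was past 1.5-fold either way, and Id1 had 83.1 CPM in the contractile stimulated cells and 78.6 in the others.

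Collagen genes mostly differed by less than 1.5-fold. None of 6 fibrillar collagens was past 1.5-fold, and their median log2 fold was 0.19. Col1a1 had 572 CPM in contractile stimulated cells and 456 in the others, Col1a2 758 and 684, and Col3a1 129 and 188. Among 12 other collagens Col8a1 was higher, with 37.7 and 24.4 CPM, while Col6a1, with 58.7 and 91.4, Col6a2, with 39.6 and 60.4, and Col18a1, with 6.08 and 12.1, were lower. The basement membrane collagen Col4a1 had 617 and 609 CPM. Other matrix genes were mixed, 5 of 28 being higher and 2 lower. Mgp, the calcification inhibitor matrix Gla protein, had 12239 and 7910 CPM, Sparc 2514 and 1568, Thbs1 2147 and 1363, Mfap5 583 and 344 and Ecm1 81.7 and 42.1, while Thbs2, with 37.4 and 64.5, and Vcan, with 44.6 and 67.8, were lower.

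Chaperones, annexins and proteasome genes were also more abundant in the contractile stimulated cells. These 3 lists were added after the genes with the largest folds had been seen, so their counts only describe that choice. Of 6 small heat shock proteins compared, 5 were higher, with a median log2 fold of 1.01. Cryab, alpha-B crystallin, a chaperone of desmin and actin filaments, had 2763 CPM in contractile stimulated cells, 1122 in the other stimulated cells and 979 in control cells at or above the cut. Hspb1 had 792, 296 and 463 CPM in these groups, and Hspb7 387, 225 and 49.2. Of 15 annexin and S100 genes 6 were higher and none lower. Anxa1, a calcium-dependent membrane binder that glucocorticoids induce, had 1179, 435 and 256 CPM, so that the contractile stimulated cells held the most. Anxa2 had 1047 CPM in contractile stimulated cells and 573 in the others. Of 35 proteasome subunits 25 were higher, with a median log2 fold of 0.71, among them Psmd6 with 85.1 and 36.8 CPM. The endoplasmic reticulum chaperone Hspa5 had 372 and 181 CPM, and 4 of 17 genes of the stress list were higher, also including Hsp90b1, Asns and Phgdh.

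Among the genes with the largest differences several were on neither the contractile nor the SRF list. Tmem37 had 135 CPM in contractile stimulated cells, 33.6 in the other stimulated cells and 22.2 in control cells at or above the cut. Its 4.02-fold difference within the stimulated library (3.78 to 4.26) came second to that of Mylk among genes of at least 25 CPM outside the rule. Cd59a, an inhibitor of complement, had 63.7 and 19.6 CPM in the contractile and the other stimulated cells (3.25-fold). Ckb, the brain form of creatine kinase, had 43.2 and 14.6 (2.95-fold), Tgm2, a protein-crosslinking transglutaminase, 92.4 and 32.6 (2.84-fold), and Plpp1, a lipid phosphatase, 169 and 63.5 (2.66-fold).

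Fth1 and 4 interleukin 1 family genes were lower in the contractile stimulated cells. Fth1, the ferritin heavy chain, had 8123 CPM in contractile stimulated cells, 16430 in the other stimulated cells, 3579 in control cells at or above the cut and 7120 in control cells below it. The fold within the stimulated library was 0.494 (0.491 to 0.498), and the median over cells was 71.2 per 10000 UMIs in contractile stimulated cells and 139 in the others. Slc39a14, a carrier of zinc and iron, had 29.4 and 58.9 CPM, and with Fth1 it made 2 of 8 metallothionein and iron genes that were lower, none being higher (median log2 fold -0.46). Ftl1, the ferritin light chain, had 9662 and 13105 CPM, a 0.737-fold difference that was not past 1.5-fold, and near copies matched 95.5% of its 3′ windows. The metallothionein Mt1 had 10661 and 15164 CPM. Ferritin and metallothionein genes together took 3.46% of the UMIs of contractile stimulated cells and 5.32% of those of the others. Of 5 interleukin 1 family genes, a list also added later, 4 were lower: Il1rl1, the receptor of interleukin 33, with 33.3 and 76.6 CPM, Il33 with 5.65 and 16.9, Il1rn, the interleukin 1 receptor antagonist, with 43.5 and 89.6, and Il1r1 with 34.2 and 52.5. Within the 6 clusters described further on, Il1rl1 was lower in members in 3 and higher in 1, by 1.70-fold in the cluster led by Tgm2 and Ankrd1, and the list's median log2 fold was 0.20 in the cluster led by Cdkn3 and Cenpa.

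The other genes with large differences in this direction were of mixed roles. Serpina3n, a secreted acute-phase protease inhibitor, had 382 CPM in contractile stimulated cells and 730 in the others (0.524-fold, 0.508 to 0.540). Gas1, a cell-surface partner of hedgehog signalling, had 27.9 and 66.7 (0.418-fold, 0.373 to 0.468), Ace, the angiotensin-converting enzyme, 17.9 and 38.0, and Sned1, a matrix glycoprotein, 54.0 and 114. Igfbp4 had 34.5 and 68.8, Gda, guanine deaminase, 77.6 and 141, Tshz2, a transcription factor, 25.7 and 48.6, and Scara3 24.1 and 42.1.

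**Figure D3:**
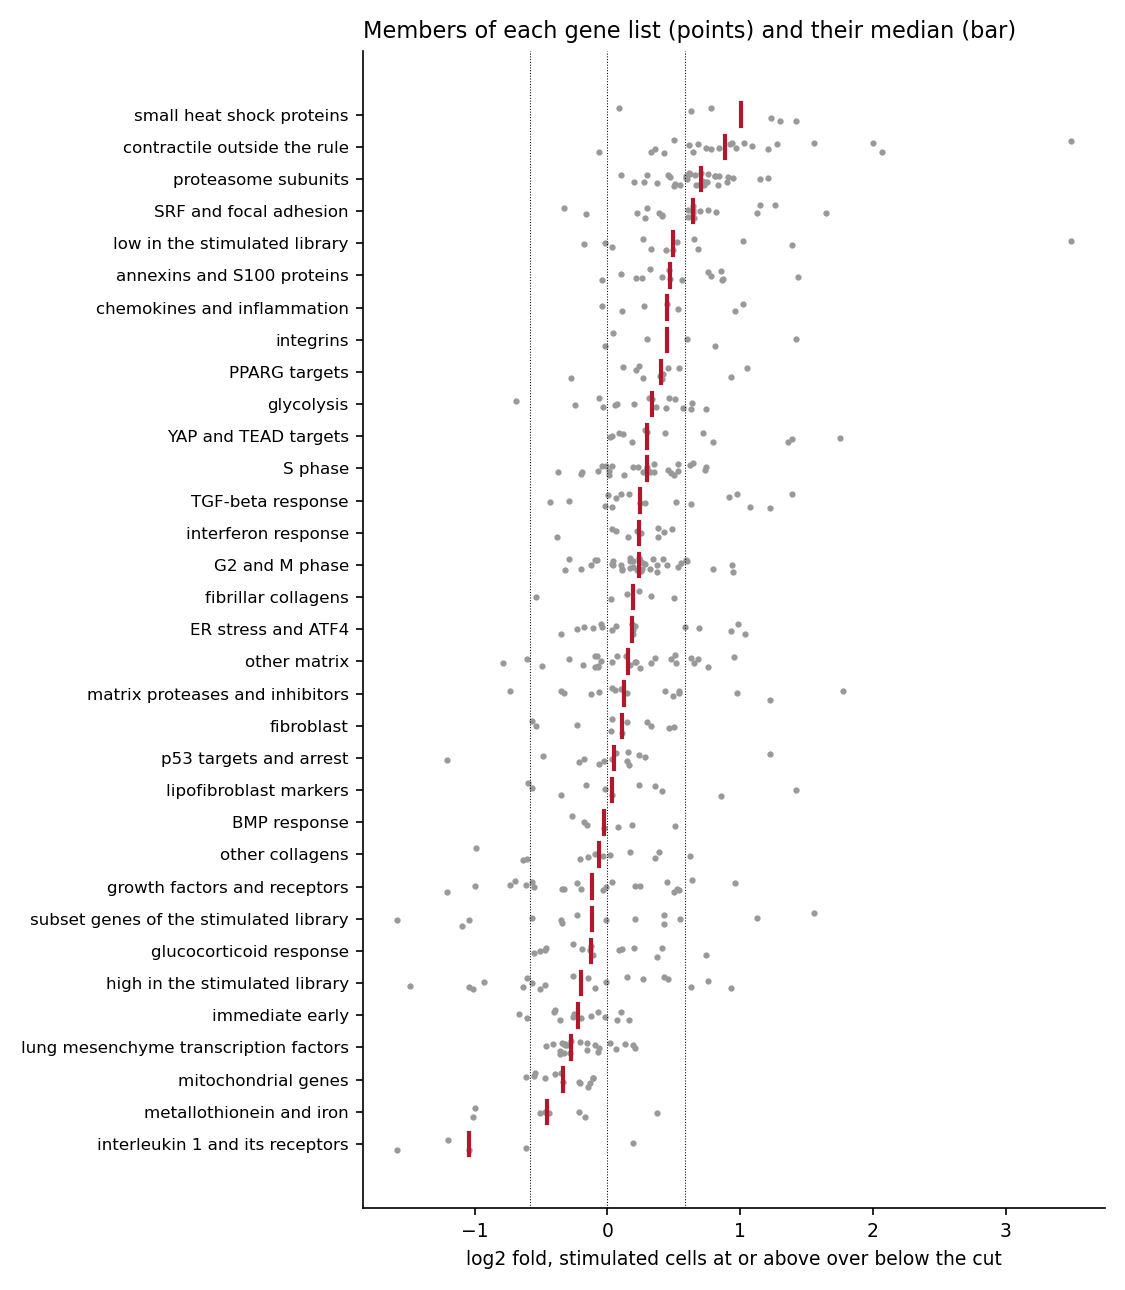
Log2 fold of stimulated cells at or above over below the cut for the compared genes of each list (points) with the list's median (bar), and dotted lines at 0 and at 1.5-fold either way. Contractile, SRF, small heat shock and proteasome lists lie to the right with medians from 0.64 to 1.01, and the metallothionein and interleukin 1 lists lie to the left at -0.46 and -1.04.

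The balance of higher and lower genes depended on what the counts were divided by. Ribosomal protein genes took 29.2% of the UMIs of contractile stimulated cells, 35.8% in the other stimulated cells, 30.4% in control cells at or above the cut and 35.8% in control cells below it. Leaving ribosomal protein and mitochondrial genes out of genes and totals moved the median log2 fold of all genes to -0.13, and the counts became 347 higher and 671 lower, so that 34.1% of the called genes were higher in place of 74.9%. These and the following counts keep the same 1.5-fold line and are not taken relative to that lower median. In this scaling the contractile list outside the rule still had 14 of 22 genes higher and none lower, and small heat shock proteins 4 of 6. The SRF list had 6 of 21 and the proteasome list 12 of 35. Metallothionein and iron genes then had 5 of 8 lower and fibrillar collagens 2 of 7. The medians of the lists of matrix proteases, fibroblast, lipofibroblast and p53 genes were above 0 in the first scaling and below 0 in the second, so no direction is given for them.

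Lipid genes of the PPARG programme were present in the contractile stimulated cells. Of 12 PPARG targets compared with the other stimulated cells, 2 were higher and none lower, with a median log2 fold of 0.40. Over the alternatives that median ran from -0.08 to 0.60, so no direction is given for the list. Fabp4, a fatty acid binding protein of adipocytes, had 253 CPM in contractile stimulated cells, 133 in the other stimulated cells and 10.3 in control cells at or above the cut. Fabp5 had 301, 145 and 251 CPM in these groups. Angptl4, a secreted inhibitor of lipoprotein lipase, had 144, 119 and 19.6 CPM, and the lipid droplet coat gene Plin2 91.4, 68.7 and 49.7. Adipocyte markers as such were almost absent, at 1.04 CPM summed over 8 genes in contractile stimulated cells, with 3 of them at 0, and at 5.30 CPM in the others.

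Genes that set the stimulated library apart were only partly lower in its contractile cells. The lists of 20 genes high and 20 genes low in the stimulated library had been chosen on the difference between these libraries. Of the first, 6 of 20 were lower in the contractile than in the other stimulated cells and 3 were higher, these being Fabp4, Aldh1a1 and Mgp. Of the second, 5 of 13 compared were higher and none lower, namely Acta1, Ctgf, Cxcl14, Sparc and Thbs1. Against control cells at or above the cut, all 19 compared genes of the first list were higher in the contractile stimulated cells and all 20 of the second lower, which the choice of the lists fixed in large part. Spp1, osteopontin, stood at 3453 CPM in contractile stimulated cells, 3471 in the others and 301 in control cells at or above the cut.

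Most cell cycle genes differed by less than 1.5-fold, though the share that was higher exceeded that over all genes. Thinned to 5000 UMIs, 35.1% of contractile stimulated cells had at least 5 UMIs of 12 cycling genes (31.2 to 39.1%), 29.6% of the other stimulated cells (28.4 to 30.7%), 17.9% of control cells at or above the cut (16.3 to 19.6%) and 16.7% of control cells below it (15.1 to 18.4%). These are counts of UMIs and not calls of dividing cells. Of 37 genes of G2 and M phase 5 were higher and none lower, Cdk1 having 105 and 54.7 CPM in the contractile and other stimulated cells, and of 27 S phase genes 4 were higher, beside 7.66% of all genes. The list medians were 0.24 and 0.30, and over the alternatives they reached -0.17 and -0.06, so no direction is given for either list. Among stimulated cells under the cycling limit alone, the contractile list outside the rule again had 17 of 22 genes higher, with a median log2 fold of 0.97.

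Markers of other cell types were checked over whole lists. The fibroblast list summed to 5002 CPM in contractile stimulated cells and 4242 in the others, and none of its 11 compared genes was past 1.5-fold. Smooth muscle markers outside the rule summed to 377 CPM in contractile stimulated cells, 137 in the others, 349 in control cells at or above the cut and 107 in control cells below it, with medians over cells of 1.14, 0.506, 1.96 and 0.657 per 10000 UMIs. Des alone gave 270 of the 377 CPM, 91.8 of the 137, 131 of the 349 and 35.1 of the 107, so a single gene carried much of each sum and the order of contractile stimulated over control cells rests on it. That list overlaps the contractile genes, and of its defining member Myh11 the contractile stimulated cells held 2.52 CPM. Mesothelial markers summed to 50.1 CPM in contractile stimulated cells and 35.3 in the others, with a median over cells of 0 in both groups. Of the 3 mesothelial markers compared, Msln, mesothelin, had 25.3 and 11.7 CPM and Krt7 11.3 and 5.47, while Wt1 had 4.95 and 6.19. Without the clusters led by Des or keratin genes, the contractile list outside the rule still had 17 of 22 genes higher. The keratin cluster held 1 member among its 24 cells, so leaving it out could hardly change the members. A cluster with Lmod1 and Cnn1 among its leading genes, with 51 members, was kept. Macrophage markers summed to 13.5 CPM in contractile stimulated cells, with 7 of 12 at 0, and to 14.0 in the others. In contractile and other stimulated cells pericyte markers summed to 29.0 and 27.4 CPM, endothelial markers to 9.99 and 13, Schwann and neural markers to 3.65 and 3.41, epithelial markers to 0.782 and 0.971, and lymphoid and granulocyte markers to 0.347 and 1.47. In the contractile stimulated cells 1 of 9 pericyte markers in the files was at 0, as were 2 of 10 endothelial, 3 of 6 Schwann and neural, 7 of 10 epithelial and 5 of 8 lymphoid and granulocyte markers. The part of the cells carrying smooth muscle and mesothelial markers in the differences was not tested beyond leaving out the clusters led by Des or keratin genes.

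Many of the differences, though not all, grew by degrees over the range of the score. All stimulated cells were ordered by score into 10 bins of 670 or 671 cells, of which the highest held all 587 members as 87.6% of its cells. Median scores ran from 3.95 in the lowest bin to 78.3 in the highest, and median UMIs from 15134 to 18145. From lowest to highest bin, Anxa1 went from 217 to 1144 CPM and was higher at each of 9 steps. Mylk went from 19.0 to 143 CPM, Tmem37 from 15 to 128 and Lmod1 from 4.68 to 61.1. Fth1 went from 23797 to 8392 CPM and Serpina3n from 1056 to 390, each lower at every step. Ribosomal protein genes were lower at every step too, from 394765 to 294619 CPM in sum. Fabp4 had 154 CPM in the lowest bin, 131 in the fifth, 173 in the ninth and 251 in the highest, so most of its difference lay at the top. Hspa5 had 200, 148, 225 and 350 CPM in the same bins and was higher at 4 of 9 steps. Fibrillar collagens summed to 1307 CPM in the lowest bin and 1669 in the highest.

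**Figure D4:**
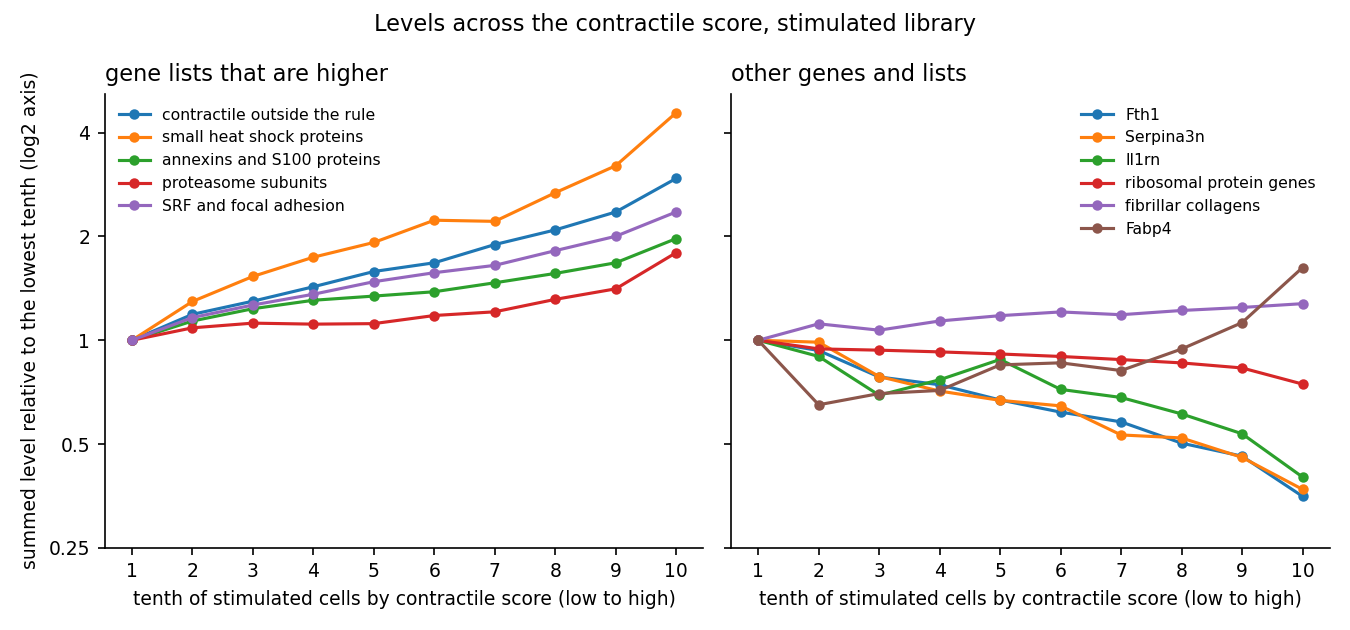
Summed CPM of gene lists and genes in 10 bins of stimulated cells ordered by contractile score, each divided by its level in the lowest bin (log2 axis). Small heat shock proteins reach 4.57 times and the contractile list outside the rule 2.95 times their lowest-bin level, while Fth1 and Serpina3n end at 0.353 and 0.369 times theirs.

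The contractile stimulated cells were spread over clusters drawn from other genes. Stimulated cells were clustered without the genes of the rule and without the contractile list, so these genes did not enter the clustering. Members were found in all 11 clusters. Leading genes were ranked afterwards with these genes included, so Lmod1 and Des lead clusters that they did not draw. Cnn1, a gene of the rule, was also among the leading genes of the cluster led by Tgm2 and Ankrd1. A cluster of 452 cells led by Ctsl, Hspa5, Psmd12 and Clu held the largest share of members, 148 cells or 32.7% of it (28.4 to 37.3%). A cluster of 188 cells led by Tgm2, Mef2c, Ankrd1 and Lmod1 held 51 members, 27.1% of it (20.9 to 34.1%), and a cluster of 443 cells led by Hsd3b6, Gzme and Des held 73, or 16.5% (13.1 to 20.3%). Shares were lower in the large clusters. In that of 1961 cells led by Islr, Col15a1 and Meg3, members were 81 cells or 4.13% (3.29 to 5.11%), and in a cluster of 1906 cells led by cycling genes they were 149 or 7.82% (6.65 to 9.12%). The lowest share was 6 of 583 cells, 1.03% (0.379 to 2.23%), in a cluster led by Igfbp3, Il1rl1 and the stress gene Ddit3. The cycling cluster and the one led by Ctsl and Hspa5 held 25.4% and 25.2% of all members.

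In 6 clusters there were at least 50 members and 50 other cells, and the differences were taken within each. The 6 genes of the rule were higher in members in 6 of 6 clusters, which only describes the choice of members by their sum. Outside the rule, Mylk (2.39 to 5.56-fold), Anxa1 (1.63 to 2.50-fold), Tmem37 (1.97 to 4.18-fold), Cd59a and Ckb were also higher in 6 of 6. Serpina3n was at least 1.5-fold lower in members in 5 of 6 clusters and Fth1 in 4, with folds from 0.467 to 0.768 and from 0.466 to 0.728. Other differences belonged to particular clusters. Des had 1585 CPM in members and 992 in other cells of the cluster led by Hsd3b6, Gzme and Des, but 14.5 and 51.2 in that led by Tgm2 and Ankrd1. Psmd6 had 143 and 129 CPM in members and other cells of the cluster led by Ctsl and Hspa5, a difference of 1.12-fold, and the proteasome list's median log2 fold there was 0.01. Hspa5 itself had 770 and 684 CPM in that cluster, against 372 and 181 over all members and others. Ankrd1 had 15.5 CPM in members and 29.9 in other cells of a cluster led by Cdkn3 and Cenpa, the reverse of the whole.

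Set beside control cells at or above the same cut, the contractile stimulated cells differed in their other contractile genes, in matrix and in lipid genes. Over 8673 genes compared, 712 (8.21%) were higher and 1044 (12%) lower in the contractile stimulated cells, 20.2% in all. The contractile list outside the rule had 1 of 24 genes higher, Des, and 11 lower, with a median log2 fold of -0.52 beside -0.06 over all genes. Mylk had 149 CPM in contractile stimulated cells and 521 in these control cells (0.287-fold, 0.273 to 0.301). All 6 fibrillar collagens were lower, Col1a1 having 572 and 2418 CPM, as were 15 of 19 TGF-beta response genes, 9 of 11 BMP response genes and 10 of 14 YAP and TEAD targets. PPARG targets were higher in 9 of 12 and glucocorticoid response genes in 10 of 14. The proteasome list had none of 35 past 1.5-fold either way. Among the other stimulated cells set against control cells below the cut, 729 of 8807 compared genes (8.28%) were higher and 983 (11.2%) lower, 19.4% in all. There too all 6 fibrillar collagens and 13 of 22 contractile genes outside the rule were lower and 9 of 13 PPARG targets higher. Because library and treatment go together here, these differences cannot be told apart from differences between the 2 libraries.

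Single genes showed how far the groups stood apart. Serpina3n had 382 CPM in contractile stimulated cells and 5.15 in control cells at or above the cut (74.3-fold, 65.0 to 85.3), and Ace 17.9 and 0.205 CPM (87.3-fold, 45.1 to 194). Serpinb2 had 66.5 and 1.84 CPM, Fmo2, a flavin monooxygenase, 64.9 and 1.89, Il1rn 43.5 and 1.68, and Aldh1a1, a retinoic acid synthesising enzyme, 105 and 7.01. Clca3a1 had 68.0 and 4.08 CPM, and 27.3% of its 3′ windows matched another gene. On the other side Igf1 had 6.25 CPM in contractile stimulated cells and 197 in these control cells (0.0317-fold), the small proteoglycan Dcn 9.03 and 221, Wisp2 13 and 362, Igfbp5 6.08 and 133 and Npr3 3.39 and 66.3.

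These control cells had a wider spread of scores, so they were also weighted to the score mix of the contractile stimulated cells. The score is the sum of the 6 genes of the rule, so matching it ties their folds together. Where some are lower, others must be higher, and these folds only describe the make-up of the score. At matched scores Acta2 was 1.19-fold, Tagln 1.04-fold and Tpm2 1.18-fold the control level, and Myl9 was 0.713-fold. Unweighted, Acta2 was 0.878-fold, Tagln 0.881-fold and Tpm2 0.914-fold. Cnn1 at 0.315-fold, Actg2 at 0.352-fold, Mylk at 0.355-fold, Acta1 at 0.116-fold and Myh11 at 0.0694-fold stayed lower in the contractile stimulated cells. Des was 2.76-fold and Anxa1 5.69-fold the matched control level.

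The same contrast was then made inside the control library, which shares no cells with the stimulated one though its median set the cut. Control cells at or above the cut had 366 of 8757 compared genes (4.18%) higher than control cells below it and 131 (1.5%) lower, 5.68% either way. Without the 119 control cells that carried macrophage UMIs, 372 of 8705 were higher and 76 lower. Across 8251 genes compared in both libraries outside the rule, the log2 folds of the 2 libraries had a Pearson r of 0.77 and a Spearman rho of 0.77. Genes are not independent replicates, and the points share the cut, the assay and the reading of depth from total UMIs. Of the 610 genes higher in contractile stimulated cells 254 were also higher in the control contrast, which is 41.6% of these 610 and 79.6% of the 319 higher in the control. Of the 172 lower, 32 were lower in the control as well, which is 18.6% of them and 41.6% of the 77 lower in the control. Without those 119 cells 32 genes were lower in both, 18.8% of 170 in the stimulated library and 52.5% of 61 in the control. All 12 named genes with the largest folds in the stimulated library were higher in the control contrast too, Mylk by 4.35-fold and Tmem37 by 1.73-fold.

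Of the 12 named genes lower in contractile stimulated cells, 8 were also at least 1.5-fold lower in control cells at or above the cut than in those below it. Ace went the other way, with 0.205 CPM in control cells at or above the cut and 0.0694 in those below it, from 9 and 3 UMIs (2.95-fold, 0.737 to 17). Serpina3n had 5.15 and 15 CPM and Il1rn 1.68 and 9.29 in these 2 control groups. Control cells below the cut held macrophage marker UMIs at 1414 CPM in sum, against 87.1 CPM in those at or above it. Without the 119 cells that carried macrophage UMIs, Fth1 had 3561 CPM in control cells at or above the cut and 5572 in those below it (0.639-fold, in place of 0.503), and Il1rn had 1.69 and 7.70. Fabp4 was 1.90-fold higher in contractile than in other stimulated cells and 0.785-fold in the control contrast, or 1.21-fold (1.05 to 1.39) there without the macrophage cells, so its control direction rests on them. Cryab was 2.46-fold and 1.23-fold higher in these contrasts. Whether the contrasts of the 2 libraries differ was not tested.

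**Figure D5:**
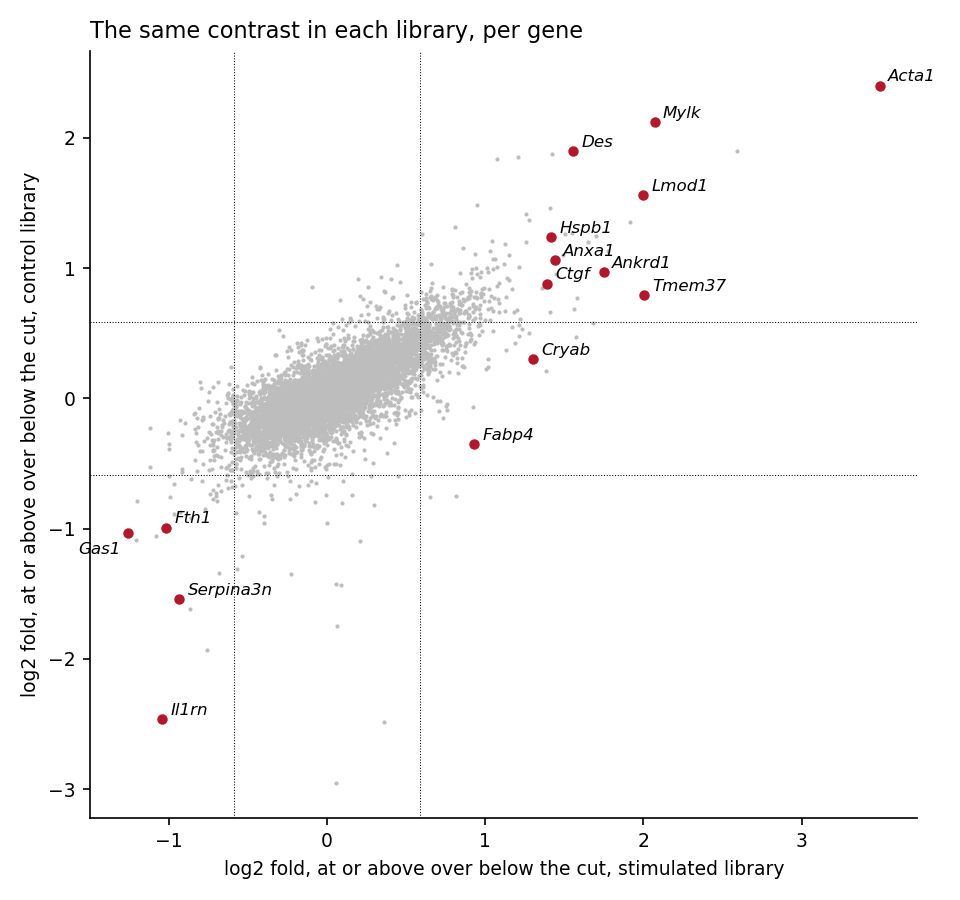
Each point is a gene outside the rule, with its log2 fold between cells at or above and below the cut in the stimulated library (horizontal axis) and in the control library (vertical axis), and dotted lines at 1.5-fold. Mylk, Lmod1, Des and Hspb1 lie at the upper right and Serpina3n, Il1rn and Gas1 at the lower left, while Fabp4 is past the line in the stimulated library only.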

How the data were processed

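Per the labels, both libraries were made with a droplet 3′ kit from cultured lung fibroblasts. The authors deposited a matrix of counts for each, holding raw UMIs of each gene in each barcode. Per the file headers, Cell Ranger 3.0.2 wrote the matrices. Seurat 3.0.0 and Cell Ranger 1.3.1 stand in the submitters' processing notes, and the sources used here do not settle which version counted the reads, nor give the genome build. Genes follow the deposited list of 27998, in which 56 symbols occur more than once.

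The members and gene lists were chosen with earlier results of these data known. Counts were summed per group and divided by total UMIs (CPM). Folds have exact conditional-Poisson 95% intervals, checked on simulated counts. Where a group held no UMI of a gene, 3 counts were put in its place. With 1 library per group no test was run. Lists numbered 28 for programmes, 11 for cell types and 5 added after folds had been seen. Named genes were the 6 of the rule; the 12 largest folds each way between members and other stimulated cells at a mean of at least 25 CPM, without mitochondrial, ribosomal and unnamed genes; the 6 largest each way against control cells; from each list the 3 of highest level and the 1 of largest fold; and listed genes that carry a result. Clusters came from scanpy 1.11.5 in Python 3.11.15 (2000 variable genes, 30 components, 15 neighbours, Leiden resolution 0.5). No doublet caller was run, so doublets remain, and leaving out the 10% of cells with most UMIs was an alternative. Near copies were sought with minimap2 2.31 in 90-base windows of the last 400 bases of GENCODE M21 transcripts, allowing 2 mismatches. Other alternatives changed the filter, cut, scaling, weighting and cells.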

Additional observations from a re-analysis of the deposited data

How the results depend on the processing

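No paired analysis was possible because each group holds 1 library, and for the same reason no replicate could be left out. The share of contractile cells among stimulated cells was 21.9% with the cut at the control 25th percentile, 2.59% at the 75th and 9.65% without Actg2 in the score. Genes at least 1.5-fold higher in members numbered 279 and 1137 at those percentiles, 347 without mitochondrial and ribosomal genes and 436 at a mean of at least 20 CPM. Genes at least 1.5-fold lower numbered 95 and 715 at the percentiles, 671 without mitochondrial and ribosomal genes, 665 at a mean of at least 1 CPM and 57 at a mean of at least 20 CPM. At the 75th percentile 61.4% of called genes were higher, at 1 CPM 56.7% and at 20 CPM 88.4%, beside 74.9% as reported. The median log2 fold of the contractile list outside the rule was 0.39 within cluster 1 (led by Cdkn3 and Cenpa) and 0.51 within cluster 6 (led by Tgm2 and Ankrd1), beside 0.88 over all cells. With other UMI and mitochondrial limits, and with the score at 5000 UMIs, the share stayed within its interval, and it was not recomputed for alternatives that leave out cells. The cells themselves changed more. With the score at 5000 UMIs, 614 cells reached the cut, of which 525 were among the 587 members. Under the other alternatives both gene counts stayed within 1.5 times the reported ones, and over all alternatives that median ran from 0.39 to 1.01. Of the single folds and list medians recomputed, 3060 stayed within their reported range, 1565 moved outside it in the same direction or had not been past 1.5-fold, and 34 that had been past it turned.

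These 34 all lay within clusters, where few members are counted, and the cause was not tested. Within cluster 1 these were Ankrd1 (0.520-fold), Il1rn (1.15), Gda (1.09), Ecm1 (0.598), Hsd11b1 (0.849), Hspa5 (0.822) and Il1r1 (1.15), and the interleukin 1 list's median log2 fold (0.20). Within cluster 2 (led by Islr) they were Mmp10 (0.189), Tyms (0.967), Cdk1 (0.935), Msln (0.208) and Krt7 (0.884), and within cluster 5 (led by Ctsl) Hsd11b1 (0.955) and Cxcl14 (0.925). Within cluster 6 they were Des (0.283), Il1rl1 (1.70), Tshz2 (1.18), Scara3 (1.13), Fmo2 (0.636), Igfbp5 (2.54), Myh11 (0.848), Mmp10 (0.763), Hsd11b1 (0.636), Cdk1 (0.848), Hsp90b1 (0.826), Hspa5 (0.755), Cxcl14 (0.318), Egr2 (1.20), Msln (0.283) and Krt7 (0.777). Within cluster 7 (led by Hsd3b6) they were Il1rn (1.36), Fmo2 (0.717) and Krt7 (0.534).

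Below 5000 UMIs and at up to 20% mitochondrial UMIs, 18.0% of 963 stimulated and 82.1% of 871 control barcodes (of 990 and 936 at any mitochondrial share) reached the cut at median depths of 1541 and 1366 UMIs, and none is a member. Rpl41, Ftl1, S100a4 and Gapdh share 68.8%, 95.5%, 60% and 59.6% of their 3′ windows with near copies, so their levels are uncertain.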
